A study of Arabidopsis with 27 samples.

Results

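The genes described here make, move and break down glucosinolates in Arabidopsis. They are 37 loci listed by their annotated roles: MYB regulators, chain elongation enzymes, core and side-chain enzymes, transporters, and the enzymes of breakdown. The rule for the list used no measured value, but the list was chosen with earlier results of these data known. Of the 37, 36 had values among the 32824 genes of the table, and 32 had a mean of at least 1 FPKM (fragments per kilobase of transcript, scaled to the mapped fragments of the library) and were tested, among 16577 genes that passed this filter. AOP2 (AT4G03060), a side-chain dioxygenase, was not analysed here.

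Glucosinolates are sulfur-rich thioglucosides that defend plants of the cabbage order. Aliphatic glucosinolates start from methionine, whose side chain is lengthened in the chloroplast before the core structure is built, and indolic glucosinolates start from tryptophan. When tissue is damaged, myrosinases remove the glucose and release toxic products, and in intact leaf cells the atypical myrosinase PEN2 cleaves indolic glucosinolates during defence against microbes.

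RNA was sequenced from rosette leaves that had not themselves been treated. One local leaf of the rosette had received extracellular ATP, given as 300 µM βγmeATP and labelled eATP, or 100 mM L-glutamate, labelled L-Glu, or the mock buffer, and the systemic leaf was frozen 30 min later. The plants were 4 weeks old and were labelled glr3.3glr3.6, p2k1p2k2 or Col-0, the common laboratory wild type. GLR3.3 and GLR3.6 are glutamate receptor-like channels, and P2K1 and P2K2 are receptor kinases for extracellular ATP. Every combination of 3 genotypes and 3 treatments was a group of 3 libraries, 27 in all, and each library came from a pool of 8 plants. The p-values therefore measure the spread between pools. The labels number the pools 1, 2 and 3 within each group and do not say what a number stands for. All plants were kept in 10 h light and 14 h dark at 50 µmol photons per second and square metre and 21 °C.

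The genes that name the mutant lines were higher, not lower, in the lines named for them. GLR3.6 averaged 95.9 ± 22.1 FPKM in libraries labelled glr3.3glr3.6 and 1.06 ± 0.217 FPKM in Col-0 (SD, n = 9 each). The log2 difference was 5.53 for GLR3.6 and 0.71 for GLR3.3, and in libraries labelled p2k1p2k2 it was 3.40 for P2K2 and 1.44 for P2K1, all relative to Col-0 and all with a limma adjusted p under 0.05. A gene-level FPKM does not say which part of a transcript the reads came from, so these values neither check nor contradict the loss of the proteins, and the lines are called by their labels throughout. For the leaf label, the mesophyll marker RBCS1A, a Rubisco subunit gene, averaged 9177 FPKM, and of 5 root markers EXPA7 and BGLU22 were listed at 0 in every library, SMB in 23 and AGP22 in 6 of 27, whereas SCR averaged 4.28 FPKM. Summed FPKM lay between 740955 and 786962 in all libraries except Col-0 eATP number 3, at 822758. Read depth is not known, because the table holds no counts. A lower value of a gene in whole leaf can mean fewer cells of a type or less RNA per cell, and these cannot be told apart.

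The most abundant members were the breakdown genes. TGG1 (AT5G26000), the main leaf myrosinase, averaged 1386 ± 353 FPKM over the 27 libraries (SD), and PEN3 (AT1G59870), a plasma membrane exporter that acts with PEN2 (AT2G44490), averaged 1349 ± 242 FPKM. TGG2 (AT5G25980), the other leaf myrosinase, and PEN2 stood at 510 ± 192 and 511 ± 88.7 FPKM. ESM1 (AT3G14210), which favours isothiocyanate over nitrile products, was the lowest of the breakdown group at 319 ± 81.8 FPKM. These breakdown genes were thus all above the synthesis genes in level per length.

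Among the synthesis members, GGP1 (AT4G30530), which processes the glutathione conjugate in both pathways, was highest at 269 ± 91.3 FPKM. UGT74B1 (AT1G24100), a glucosyltransferase of the same shared steps, had 17.3 ± 5.86 FPKM. In the indolic core, CYP83B1 (AT4G31500), which oxidises the aldoxime, had 137 ± 64.8 FPKM, and CYP79B2 (AT4G39950), which makes that aldoxime from tryptophan, had 13.4 ± 8.17 FPKM. In methionine chain elongation, IIL1 (AT4G13430), the large subunit of the isomerase, had 94.6 ± 7.65 FPKM and was the steadiest member, between 78.7 and 105 FPKM over all libraries. The aliphatic core ran between GSTU20 (AT1G78370), a glutathione transferase, at 42.7 ± 14.5 FPKM and CYP79F2 (AT1G16400), a cytochrome P450 for long-chain substrates, at 0.261 ± 0.146 FPKM.

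The remaining synthesis members lay between these. In chain elongation the means were 36.5 FPKM for MAM1 (AT5G23010), 24.0 FPKM for BCAT4 (AT3G19710), 16.4 FPKM for IPMDH1 (AT5G14200) and 2.56 FPKM for BASS5 (AT4G12030). In the aliphatic core they were 22.5 FPKM for CYP83A1 (AT4G13770), 10.1 FPKM for UGT74C1 (AT2G31790), 7.19 FPKM for CYP79F1 (AT1G16410), 6.36 FPKM for SOT18 (AT1G74090), 4.68 FPKM for SOT17 (AT1G18590) and 1.42 FPKM for GSTF11 (AT3G03190), a second glutathione transferase. CYP79F1 ranged widely, between 2.32 and 22.1 FPKM. SUR1 (AT2G20610) of the shared steps had 25.6 FPKM, and SOT16 (AT1G74100) and CYP79B3 (AT2G22330) of the indolic core had 66.7 and 16.3 FPKM.

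The regulators of the indolic and aliphatic branches differed widely in level. MYB51 (AT1G18570), the main leaf activator of indolic synthesis, averaged 137 ± 36.7 FPKM, whereas MYB34 (AT5G60890), a related activator known mostly from roots, averaged 1.06 ± 0.259 FPKM and MYB122 (AT1G74080), the third of that group, 0.116 ± 0.216 FPKM, with 11 of 27 libraries listed at 0. MYB28 (AT5G61420), the main activator of the aliphatic branch, averaged 5.44 ± 1.50 FPKM, its partner MYB29 (AT5G07690) 1.58 ± 0.705 FPKM, and MYB76 (AT5G07700) 0.285 ± 0.238 FPKM. Of the side-chain genes, IGMT1 (AT1G21100), an indole glucosinolate methyltransferase, had 87.7 ± 38.7 FPKM and FMOGS-OX1 (AT1G65860), which oxidises the methylthio side chain, 3.72 ± 1.50 FPKM. The transporters GTR1 (AT3G47960) and GTR2 (AT5G62680), which load glucosinolates into the phloem, had 30.7 ± 7.11 and 7.59 ± 1.68 FPKM. MAM3 (AT5G23020), a synthase for longer chains, had 0.511 ± 0.485 FPKM with 4 libraries listed at 0. MYB76, MYB122, MAM3 and CYP79F2 were too low to test. Several members lie beside a close relative in the genome: CYP79F1 next to CYP79F2, MAM1 next to MAM3, SOT18 next to SOT16, and IGMT1 next to IGMT3, with no gene between. How reads were split between such copies is uncertain.

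**Figure D1:**
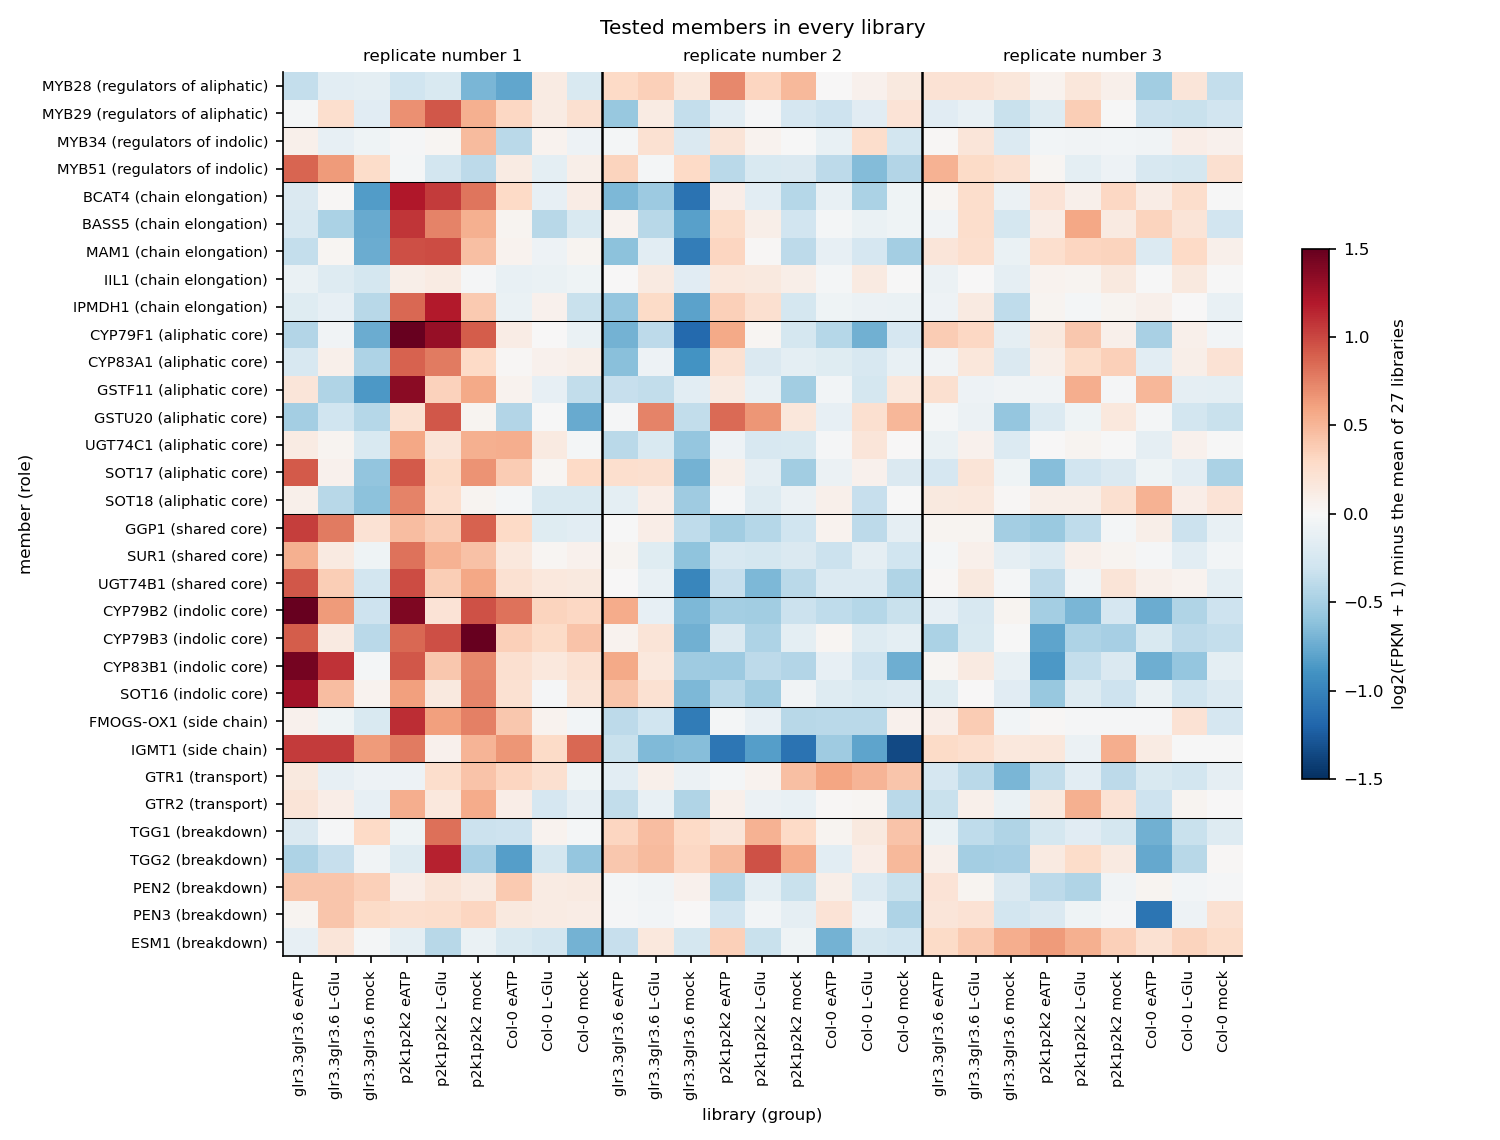
Values of the 32 tested members (down the page, by role) in the 27 libraries (across, by pool number and then genotype and treatment), as log2(FPKM + 1) minus the gene's mean over all libraries. Most indolic and shared core genes are highest in the number 1 block, whereas TGG1 and TGG2 are high in most libraries of the number 2 block.

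The first question was whether the members in the systemic leaf responded to eATP or L-Glu given to another leaf. Without the pool number in the fit, no member passed the test for any treatment in any genotype, and neither did any other gene: 0% of the 16577 genes were called by limma, at a Benjamini-Hochberg adjusted p under 0.05, in each of the 6 treatment-against-mock comparisons. Without adjustment, a p under 0.05 was reached by 3 members for glr3.3glr3.6 eATP, 3 for glr3.3glr3.6 L-Glu, 1 for p2k1p2k2 L-Glu and 0 for the other 3 comparisons, and by between 146 and 561 of all genes. The 32 members also varied more than most genes: their median standard error in these comparisons was 0.28 log2 units, against 0.18 over all genes. Small responses could thus be missed with 3 pools a group in this fit, which leaves the spread between pool numbers in the error. A block for the number within each genotype called 1 member, GGP1 after eATP in glr3.3glr3.6, where 8 of 16577 genes were called. A block shared by all genotypes called no member in these comparisons. For eATP against mock in glr3.3glr3.6, 2 of 3 same-numbered pairs of pools deviated together (correlation over 0.1), and the lowest correlation was 0.0762. Pairing by number was thus not met for the comparison that called GGP1.

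In libraries labelled glr3.3glr3.6 the members nevertheless leaned one way. After eATP, 29 of 32 were higher than after mock, with a median log2 difference of 0.29, and after L-Glu 30 of 32 were higher, with a median of 0.35. Over all genes tested the medians were 0.01 and 0.00. The same mock libraries serve in both comparisons. The 12 tested members of aliphatic chain elongation and core synthesis were all higher in each, with medians of 0.38 after eATP and 0.58 after L-Glu. The 4 genes of the indolic core were also all higher, with medians of 0.83 and 0.45.

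SOT16, the sulfotransferase that completes indolic glucosinolates, had the smallest p after eATP in glr3.3glr3.6. It measured 153, 85.0 and 55.9 FPKM in the eATP pools numbered 1, 2 and 3, against 66.0, 39.4 and 56.2 FPKM in the mock pools. The eATP pools 1 and 2 were high and pool 3 fell among the mock values. The log2 difference of 0.76 (SE 0.33) did not pass, with a limma adjusted p of 1. CYP83B1 had 344, 188 and 129 FPKM after eATP and 124, 86.6 and 116 FPKM after mock. Its groups did not overlap, but the eATP pools differed among themselves by more than pool 3 differed from mock, and the log2 difference of 0.91 (SE 0.44) had a limma adjusted p of 1. GGP1 of the shared core had 531, 256 and 264 FPKM after eATP and 299.5, 197 and 179.5 FPKM after mock: it was higher after eATP at each pool number, the groups overlapped, and the log2 difference of 0.58 (SE 0.33) had a limma adjusted p of 1. By pool number, the indolic core's median log2 difference was 1.39, 1.10 and -0.08 after eATP and 0.74, 0.80 and -0.02 after L-Glu, so the medians of the third pools lay near 0.

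After L-Glu the smallest p in glr3.3glr3.6 belonged to IPMDH1, the dehydrogenase of chain elongation. It measured 14.2, 19.4 and 17.3 FPKM after L-Glu, against 11.5, 8.53 and 11.8 FPKM after mock. The groups did not overlap, and the log2 difference was 0.63 (SE 0.24), with a limma adjusted p of 1. Of the 12 aliphatic genes, 12, 11 and 11 were higher after L-Glu within pools 1, 2 and 3, with medians of 0.35, 0.70 and 0.35.

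The glr3.3glr3.6 mock pools themselves were low for these genes. All 12 aliphatic genes were lower in glr3.3glr3.6 mock than in Col-0 mock, with a median log2 difference of -0.36, and over the 32 members 26 were lower. No member passed, where 0.0483% of all genes did. CYP83A1, which oxidises the aliphatic aldoximes, came closest: it had 15.5, 11.2 and 18.6 FPKM in glr3.3glr3.6 mock, against 23.1, 20.1 and 25.5 FPKM in Col-0 mock. The groups did not overlap, and the log2 difference was -0.59 (SE 0.23), with a limma p of 0.018 and an adjusted p of 1. Pool 2 of the glr3.3glr3.6 mock group was the lowest of all 27 libraries for 13 of the 32 members and for 8 of the 12 aliphatic genes. Among these 8, pool 2 was the lowest in 9 of 9 groups for BCAT4 and in 8 for CYP83A1. It was the lowest in 7 for MAM1 and CYP79F1, 6 for UGT74C1, 4 for BASS5 and IPMDH1 and 3 for SOT17. The glr3.3glr3.6 mock libraries enter both treatment comparisons of that genotype. The part of their low aliphatic values in the lean was not tested.

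**Figure D2:**
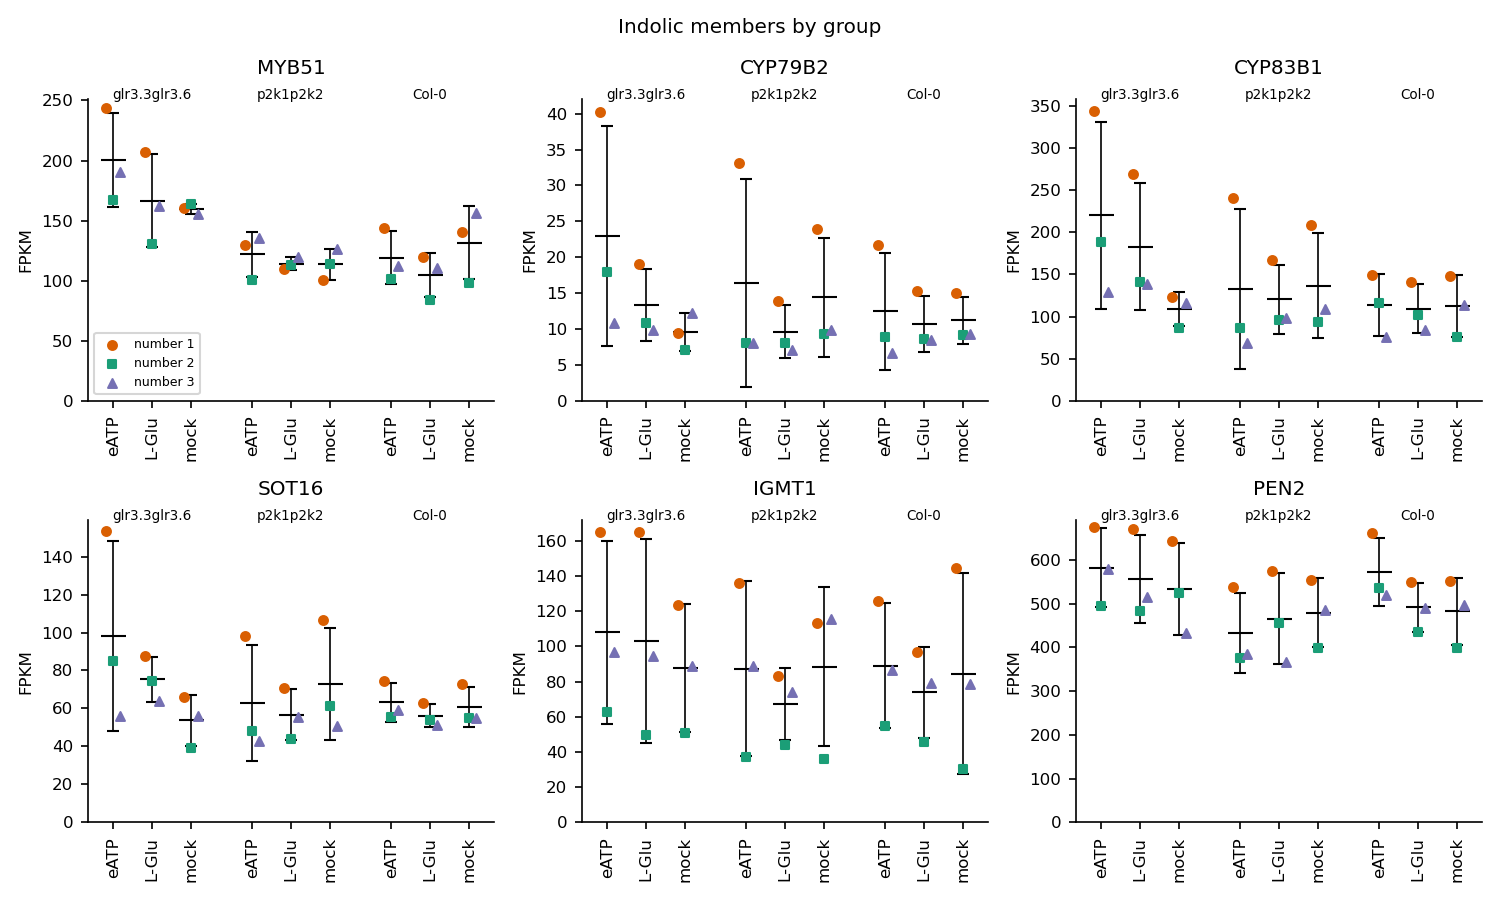
FPKM of MYB51, CYP79B2, CYP83B1, SOT16, IGMT1 and PEN2 in each group, with 1 point a library marked by pool number and bars for the mean ± SD (n = 3). For CYP83B1 the glr3.3glr3.6 eATP pools lie at 344, 188 and 129 FPKM, with pool 1 the highest in every group.

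In p2k1p2k2, 22 of 32 members were higher after eATP and 16 after L-Glu, with medians of 0.06 and 0.00, and in Col-0 the numbers were 22 and 17, with medians of 0.05 and 0.02. The aliphatic genes in p2k1p2k2 were all higher after eATP (12 of 12, median of 0.25), as in glr3.3glr3.6, and 9 of 12 were higher after L-Glu. In Col-0 they were higher for 9 of 12 after eATP and 7 of 12 after L-Glu. The indolic core was higher after eATP for 1 of 4 genes in p2k1p2k2 and 4 of 4 in Col-0, with medians of -0.21 and 0.03. In Col-0 the smallest p after eATP was that of TGG2, which measured 271, 430 and 281 FPKM after eATP and 321, 671 and 486 FPKM after mock. The eATP pool was the lower of each numbered pair, the groups overlapped, and the log2 difference was -0.56 (SE 0.33). After L-Glu it was MYB51, with 119, 84.1 and 111 FPKM after L-Glu and 141, 97.8 and 156 FPKM after mock. The groups overlapped, and the log2 difference was -0.32 (SE 0.19). Both had a limma adjusted p of 1.

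In p2k1p2k2 the smallest p after L-Glu was again that of TGG2. It measured 1070, 931 and 582 FPKM after L-Glu, against 341, 709 and 527 FPKM after mock. Pools 1 and 2 after L-Glu were the highest TGG2 values of the 27 libraries, and pool 3 after L-Glu lay within the mock range. The log2 difference was 0.73 (SE 0.33), with a limma p of 0.041 and an adjusted p of 1. TGG1 had 2383, 1930 and 1193 FPKM after L-Glu and 1075, 1650 and 1117 FPKM after mock, a log2 difference of 0.49 (SE 0.28) with a limma adjusted p of 1. TGG1 and TGG2 are close relatives with 2 genes between them on the chromosome, so reads could be shared between them. After eATP in p2k1p2k2 the member with the smallest p was IPMDH1, with 29.4, 20.3 and 16.1 FPKM after eATP and 20.8, 12.8 and 16.2 FPKM after mock. The groups overlapped, at a log2 difference of 0.37 (SE 0.24) and a limma adjusted p of 1. Within pool numbers the aliphatic genes in p2k1p2k2 had median differences of 0.50, 0.59 and -0.09 after eATP: all 12 were higher in pools 1 and 2, and 2 of 12 in pool 3.

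The study's title concerns L-Glu and ATP together, and eATP was also set directly against L-Glu within each genotype. No member and no other gene passed (0% in each of the 3 comparisons), and no member had an unadjusted p under 0.05, where 999 genes did in Col-0, 276 in glr3.3glr3.6 and 270 in p2k1p2k2. The smallest p values belonged to MYB34 in Col-0, at -0.33 log2 units (limma adjusted p of 0.825), to CYP83A1 in glr3.3glr3.6, at -0.37, and to TGG2 in p2k1p2k2, at -0.66, both with a limma adjusted p of 1. All 3 were lower after eATP than after L-Glu.

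The difference between a mutant's response and the Col-0 response was tested as an interaction. No member and no other gene passed in any of the 4 tests (0% each), and no member had an unadjusted p under 0.05, where between 176 and 477 of all genes did. For glr3.3glr3.6, the smallest p was that of MYB51 after eATP, whose response was 0.44 log2 units above that in Col-0 (SE 0.27), and of CYP83A1 after L-Glu, at 0.67 (SE 0.33). For p2k1p2k2 it was that of GGP1 after eATP, at -0.67 (SE 0.46), and of TGG2 after L-Glu, at 0.89 (SE 0.47). All 4 had a limma adjusted p of 1. The lean of the members in glr3.3glr3.6 is thus not shown to differ from Col-0.

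Averaged over the 3 genotypes, 0% of genes passed for eATP and 0% for L-Glu. Members with an unadjusted p under 0.05 were BASS5 and SOT18 for eATP and IPMDH1, MAM1 and GSTU20 for L-Glu, all higher after treatment, and 263 and 176 of all genes reached that level. BASS5, the chloroplast carrier for the keto acids of chain elongation, averaged 2.97 ± 1.27 FPKM after eATP and 2.02 ± 0.901 FPKM after mock (SD, n = 9 each), a log2 difference of 0.40 (SE 0.15). IPMDH1 averaged 18.7 ± 7.04 FPKM after L-Glu and 13.7 ± 3.47 FPKM after mock, a log2 difference of 0.41 (SE 0.14). Their groups overlapped, and both had a limma adjusted p of 1.

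Genotype was the second question. MYB51 was the member that differed in libraries labelled glr3.3glr3.6. Its lowest, median and highest values were 130, 164 and 244 FPKM in glr3.3glr3.6, 100.2, 114 and 135 FPKM in p2k1p2k2, and 84.1, 112 and 156 FPKM in Col-0. Most glr3.3glr3.6 libraries stood above the other genotypes, and the ranges overlapped at their edges. By group, glr3.3glr3.6 had 244, 167 and 191 FPKM after eATP, 207, 130 and 162 FPKM after L-Glu and 161, 164 and 156 FPKM after mock.

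Over the 3 treatments MYB51 averaged 176 ± 33.3 FPKM in glr3.3glr3.6 and 118 ± 24.0 FPKM in Col-0 (SD, n = 9 each). It was higher in glr3.3glr3.6 by 0.57 log2 units (SE 0.11), with a limma adjusted p of 0.0300, and it was the only 1 of 32 members called, where 0.151% of all genes were called. The difference was 0.58, 0.69 and 0.43 within pools 1, 2 and 3. The call did not hold in every setting: the adjusted p was 0.118 after median-of-ratios scaling and 0.153 when only these 18 libraries were fitted, and it lay between 0.0515 and 0.0877 when any of 13 single libraries was left out.

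Genes that MYB51 is known to activate did not pass in that comparison without the pool number in the fit. CYP83B1 averaged 171 ± 83.6 FPKM in glr3.3glr3.6 and 112 ± 29.8 FPKM in Col-0, a log2 difference of 0.53 (SE 0.25) with a limma adjusted p of 0.702. Within pools 1, 2 and 3 its difference was 0.62, 0.45 and 0.50. With the pool number as a block across genotypes 3 members were called, where 381 of 16577 genes were called. MYB51 and CYP83B1 were higher in glr3.3glr3.6 and GTR1 lower. That fit counts the 3 treatments of a genotype and number as separate replicates, so its p-values may be too small. Only 7 of 9 pairs of pools with the same number and treatment deviated together there (correlation over 0.1). SOT16 differed by 0.25 (SE 0.19), CYP79B2 by 0.29 (SE 0.30) and CYP79B3, the second enzyme making indole aldoxime, by -0.04 (SE 0.28). Of the 12 aliphatic genes 11 were lower in glr3.3glr3.6 than in Col-0, with a median of -0.17, and none passed.

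In libraries labelled p2k1p2k2 all 12 aliphatic genes were higher than in Col-0, with a median log2 difference of 0.33 against 0.04 over all genes, and none passed without the pool number in the fit (0 of 32 members, where 0.109% of all genes were called). At an unadjusted p under 0.05 there were 8 of 32 members and 2180 of 16577 genes. The pools with the same number and treatment deviated together in these 2 genotypes, so the number was also fitted as a block. Then 4 members were called, where 6.62% of all genes were, all higher in p2k1p2k2: CYP79F1, MAM1, GTR2 and TGG2. This fit counts the 3 treatments of a genotype and number as separate replicates. Same-numbered p2k1p2k2 pools deviated together, with correlations of 0.401 to 0.660 between eATP and mock. The difference from Col-0 also varied with the number for CYP79F1, MAM1 and GTR2. The p-values with the block may therefore be too small.

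CYP79F1 makes the aldoxime from chain-elongated methionine. Its lowest, median and highest values were 5.17, 8.86 and 22.1 FPKM in p2k1p2k2 and 3.51, 5.90 and 7.01 FPKM in Col-0. The p2k1p2k2 pools numbered 1 carried the highest values, at 22.1, 17.3 and 12.9 FPKM after eATP, L-Glu and mock, and the ranges overlapped. The log2 difference was 0.74 (SE 0.23), with a limma adjusted p of 0.180 without the block and 0.0212 with it. By pool number it was 1.28, 0.57 and 0.37.

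MAM1, the methylthioalkylmalate synthase that starts each elongation round, ran over 26.1, 43.8 and 69.7 FPKM (lowest, median, highest) in p2k1p2k2 and 24.1, 32.9 and 42.8 FPKM in Col-0. Its log2 difference was 0.44 (SE 0.17), with a limma adjusted p of 0.258 without the block and 0.0353 with it. GTR2 averaged 9.02 ± 1.83 FPKM in p2k1p2k2 and 6.92 ± 0.961 FPKM in Col-0 (SD, n = 9 each), a log2 difference of 0.33 (SE 0.11) with limma adjusted p values of 0.212 and 0.0427 with the block. TGG2 averaged 641 ± 235 FPKM in p2k1p2k2 and 415 ± 128 FPKM in Col-0, a log2 difference of 0.60 (SE 0.19) with limma adjusted p values of 0.193 and 0.00759 with the block. TGG2 was also the steadiest of the 4 over pool numbers, at 0.71, 0.52 and 0.57.

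The aliphatic difference between p2k1p2k2 and Col-0 was uneven over the pools. The median over the 12 genes was 0.80 for number 1, 0.09 for number 2 and 0.08 for number 3. For 10 of the 12 genes the highest of all 27 libraries was a p2k1p2k2 pool numbered 1. Fitted with the block on pairs of numbers, the calls of members were fewer than 4. There was 1 (TGG2) on numbers 2 and 3, 0 on numbers 1 and 3 and 3 on numbers 1 and 2. Over all genes 88 were called on numbers 2 and 3 and 445 on numbers 1 and 2. In mock alone, 29 of 32 members were higher in p2k1p2k2 than in Col-0, with a median of 0.18, and none passed, where 0.0362% of all genes did. The smallest p was that of GTR2, with 11.4, 6.84 and 8.81 FPKM in p2k1p2k2 mock and 6.71, 5.36 and 7.46 FPKM in Col-0 mock. Its groups overlapped, and the log2 difference was 0.40 (SE 0.19), with a limma adjusted p of 1. That median rested on the p2k1p2k2 mock pool numbered 1: without it the median was -0.03.

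**Figure D3:**
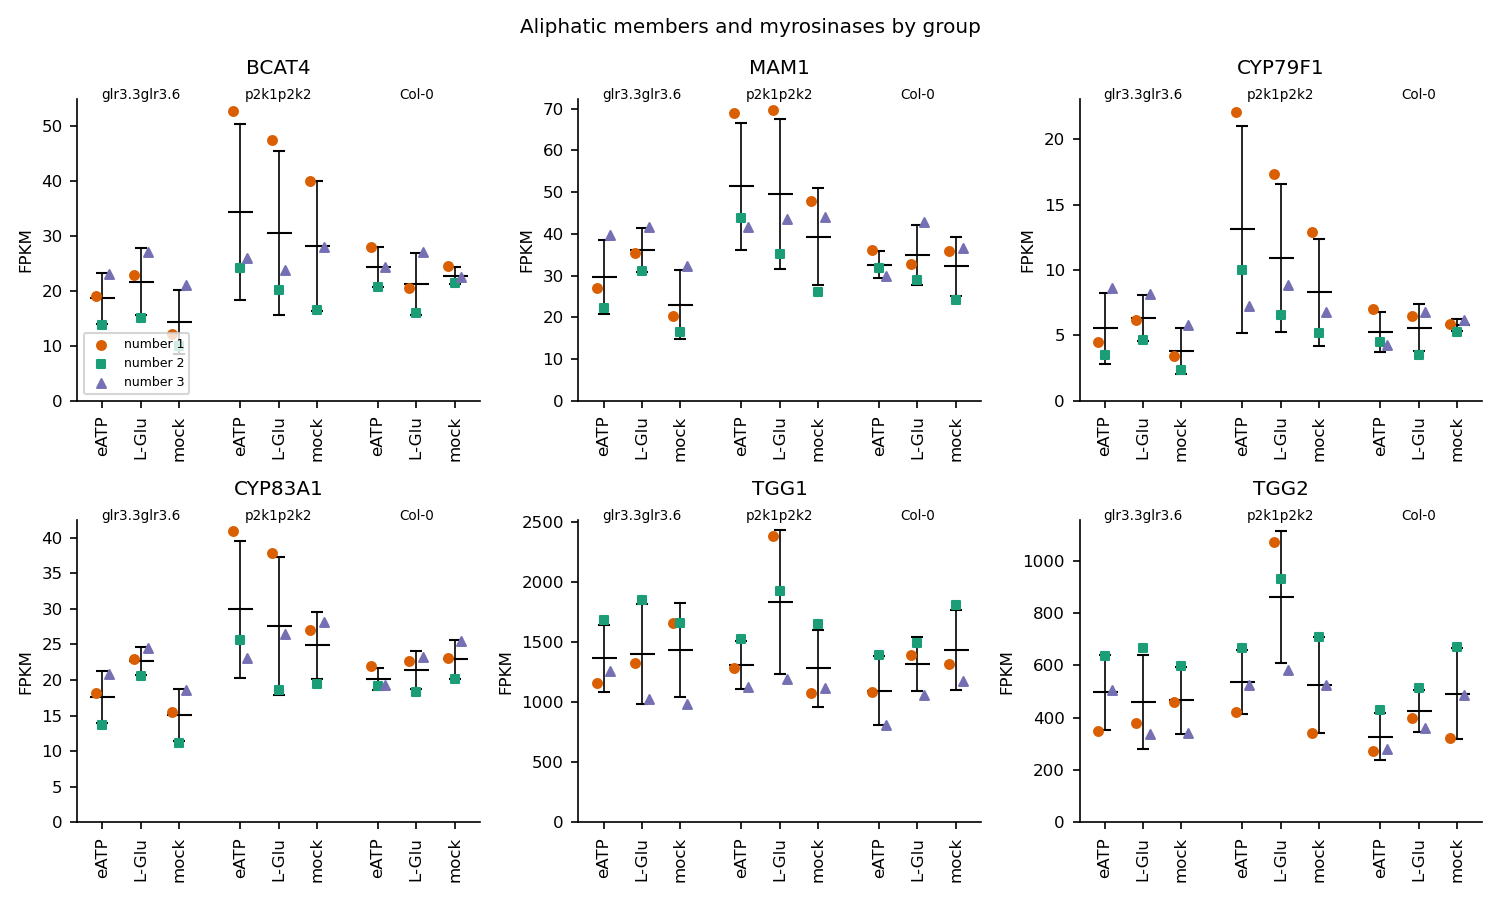
FPKM of BCAT4, MAM1, CYP79F1, CYP83A1, TGG1 and TGG2 in each group, with 1 point a library marked by pool number and bars for the mean ± SD (n = 3). CYP79F1 is highest in the p2k1p2k2 pools numbered 1, at 22.1, 17.3 and 12.9 FPKM, and TGG2 in p2k1p2k2 L-Glu pools 1 and 2, at 1070 and 931 FPKM.

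The 2 mutant lines were also set against each other, a comparison that shares its libraries with both preceding ones. All 12 aliphatic genes were higher in p2k1p2k2 than in glr3.3glr3.6, with a median log2 difference of 0.51, against 0.03 over all genes. Without the block 1 of 32 members was called, where 0.277% of all genes were. It was MYB51, which averaged 116 ± 12.4 FPKM in p2k1p2k2 and 176 ± 33.3 FPKM in glr3.3glr3.6 and was lower in p2k1p2k2 by a log2 difference of -0.58 (SE 0.11), with a limma adjusted p of 0.0194. MYB51 was lower at each pool number, by differences of -0.83, -0.49 and -0.41. Its adjusted p was above 0.05 without glr3.3glr3.6 mock 2, eATP 1 or L-Glu 1, or without p2k1p2k2 mock 1 or eATP 2, and was at most 0.0597.

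With the pool number as a block, 9 members were called between the mutant lines, where 2.68% of all genes were. Here too the p-values with the block may be too small, since the 3 treatments of a genotype and number count as separate replicates. MYB51 was again lower in p2k1p2k2, with a limma adjusted p of 0.000518, and PEN2 was also lower, by a log2 difference of -0.28 (adjusted p of 0.0104). The other 7 were higher in p2k1p2k2 and all belonged to the aliphatic branch. These 7 included every tested chain elongation gene among the members. BCAT4, the aminotransferase that enters the pathway, differed by 0.70 (adjusted p of 0.0101), BASS5 by 0.66 (0.0143) and MAM1 by 0.64 (0.00523). IIL1 differed by 0.18 (0.0121) and IPMDH1 by 0.55 (0.0264). From the aliphatic core the 7 included CYP79F1 at 0.86 (0.0113) and CYP83A1 at 0.54 (0.00237).

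BCAT4 shows how the pools entered. It measured 52.9, 47.6 and 40.1 FPKM in p2k1p2k2 pools numbered 1 after eATP, L-Glu and mock, against 19.2, 22.9 and 12.2 FPKM in the glr3.3glr3.6 pools numbered 1. The pools numbered 3 had 26.1, 23.9 and 28.1 FPKM in p2k1p2k2 and 23.0, 27.2 and 21.1 FPKM in glr3.3glr3.6. The lines were far apart for number 1 and overlapped for number 3, and the log2 difference was 1.36, 0.61 and 0.13 within numbers 1, 2 and 3. Over the 12 aliphatic genes the medians within numbers were 0.96, 0.43 and 0.13. Fitted with the block on pairs of numbers, 8 members were called on numbers 1 and 2. It was 1 (MYB51) on numbers 2 and 3, and 1 on numbers 1 and 3, against 9 on all. Over all genes 215 were called on numbers 1 and 2, against 445 on all numbers.

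**Figure D4:**
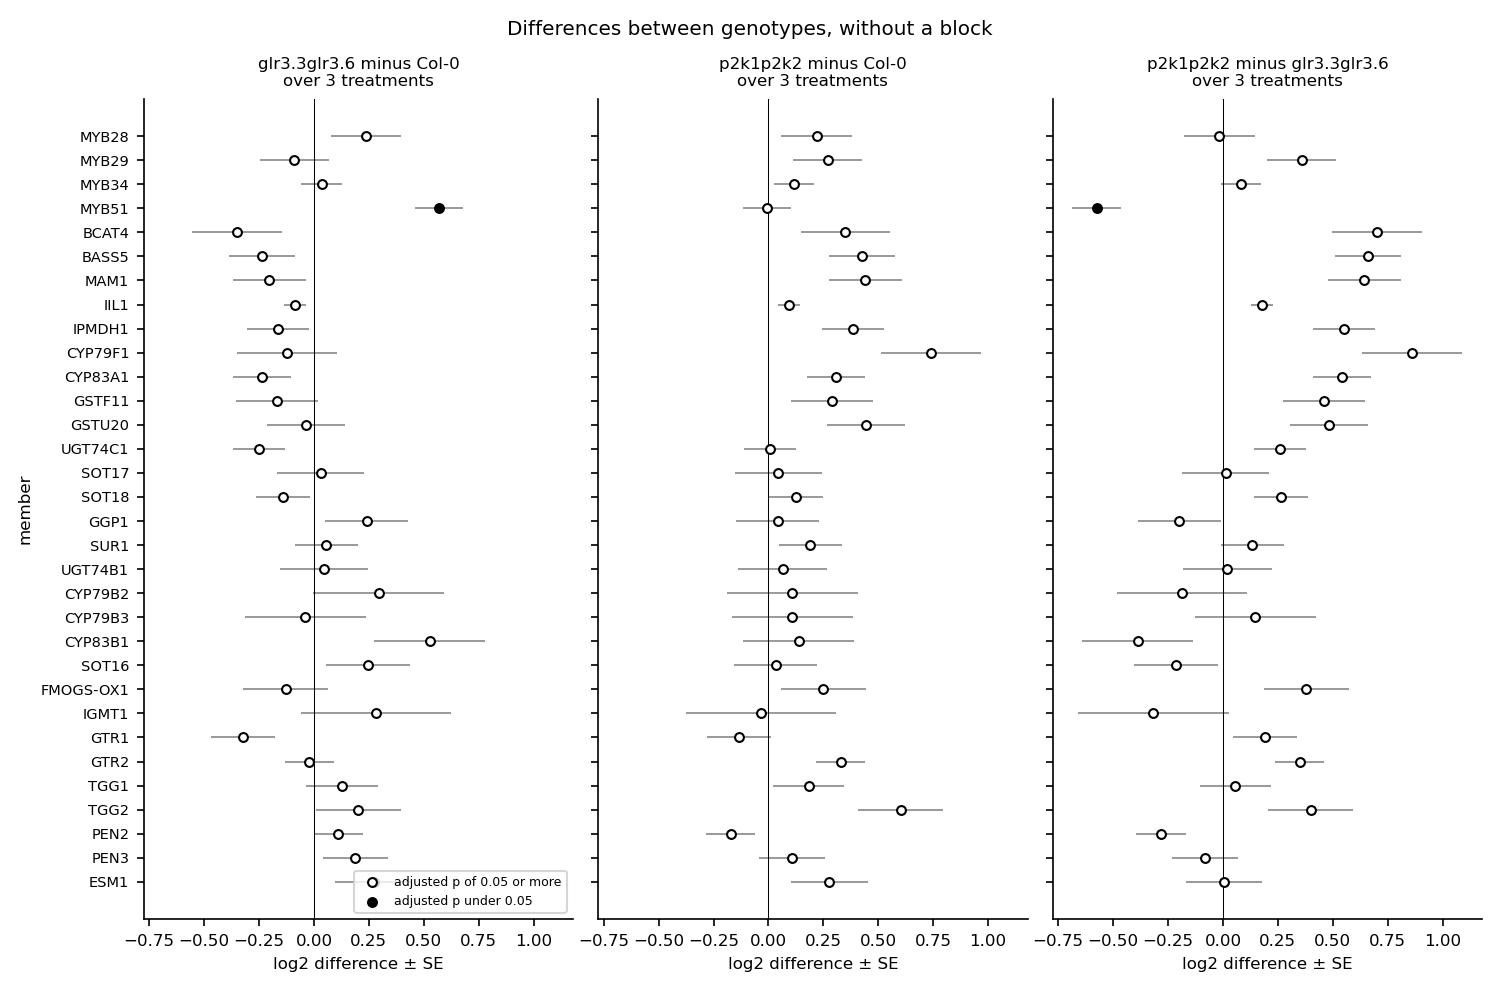
Log2 differences between genotypes over the 3 treatments for the 32 tested members (down the page, by role), with bars for the standard error of the fit without the block, for glr3.3glr3.6 against Col-0, p2k1p2k2 against Col-0 and p2k1p2k2 against glr3.3glr3.6. Filled points have a limma adjusted p under 0.05: MYB51 at 0.57 in the first panel and at -0.58 in the last, and none in the middle panel.

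Genes of the same pathway outside the 37 were counted in a further list of 37, of which 25 were tested. None passed in any treatment or genotype comparison without the block. With it, 4 were called between p2k1p2k2 and Col-0, all higher in p2k1p2k2, where 6.62% of all genes were called. They were IPMI2, the isomerase small subunit of chain elongation, at 0.51 (limma adjusted p of 0.0400), and ESP, which turns breakdown towards nitriles, at 0.32 (0.00323). The others were the regulators OBP2 at 0.24 (0.0324) and MYC4 at 0.32 (0.0356). Between p2k1p2k2 and glr3.3glr3.6, IPMI2, ESP and FMOGS-OX3 were higher in p2k1p2k2 and IGMT3, IGMT4 and CYP81F2 lower. The block called 2.68% of all genes there. In both comparisons the p-values with the block may be too small. IPMI2 differed by 0.61 (0.0250) and CYP81F2, which hydroxylates indole glucosinolates, by -0.44 (0.0135). The epidermal marker CER6, a wax synthesis gene, was also called higher in p2k1p2k2 than in Col-0 with the block, at 0.42 (0.00250), and LTP1 at 0.35 (0.0474). The summed FPKM of 5 epidermal markers ran between 766 and 1303 in p2k1p2k2 and between 658 and 857 in Col-0, and its part in the aliphatic difference was not tested.

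The sulfur supply genes, which provide reduced sulfur and the activated sulfate used by SOT16, SOT17 and SOT18, did not pass in any genotype comparison with or without the block. Of 13 tested, 12 were higher in p2k1p2k2 than in Col-0, with a median log2 difference of 0.23. The jasmonate output genes were all higher in p2k1p2k2 than in Col-0 (5 of 5, median of 0.52) and none passed. Over all genes the median was 0.04. Jasmonate is a known inducer of both branches, and its part in the members' values was not tested.

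For 20 of the 32 members the pool number took a larger share of the variance than genotype, and for 12, among them 9 of the 12 aliphatic genes, genotype took the larger share. For the median member, the number took 35.3% of the variance of log2(FPKM + 1), genotype 16.8%, treatment 5.68% and the interaction of genotype and treatment 8.22%. For the median tested gene these shares were 31.4%, 7.88%, 3.75% and 9.41%. Genotype took 58.3% for MYB51, 41.8% for BASS5, 40.7% for IIL1, 39.8% for CYP79F1 and 36.3% for GTR2. Number took 83.5% for IGMT1 and 60.0% for ESM1. The number can stand for a growth set, a harvest or a library run, and the labels do not give which.

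Against numbers 2 and 3 together, the number 1 pools had 19 members called higher and 4 called lower, 23 of 32. Over all genes 53.2% were called, 18.5% higher and 34.7% lower. This fit counts the 9 pools of a number as separate replicates. The genotype differences of CYP79F1, MAM1 and GTR2 varied with the number, so p-values between numbers may be too small. The share of called genes that were higher was 34.9% as measured, 41.0% after quantile normalization and 52.1% after median-of-ratios scaling, and the members' split was 19 higher and 4 lower, 18 and 4, and 22 and 2 under these scalings in the same order. The lower calls lost after median-of-ratios scaling were IIL1, at -0.03 (limma adjusted p of 0.456), and TGG2, at -0.27 (0.0513). MYB51 and PEN3 did not pass after quantile normalization (0.126 and 0.115).

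The indolic core stood out in size. All 4 of its genes, and all 3 shared core genes, were called higher in number 1, with medians of 0.85 and 0.58. CYP79B2 averaged 21.3 ± 9.89 FPKM in number 1 (n = 9) and 9.46 ± 2.56 FPKM in numbers 2 and 3 (SD, n = 18), a log2 difference of 1.01 (SE 0.14) with a limma adjusted p of 9.49e-06. CYP83B1 averaged 199 ± 73.2 and 107 ± 29.3 FPKM in the same pools, a difference of 0.86 (SE 0.11), and it was highest in pool 1 in 9 of 9 groups. SOT16 was also highest in pool 1 in 9 of 9 groups, as were SUR1, the C-S lyase of the shared core, PEN2 and MYB29. CYP79B3 differed by 0.84, GGP1 by 0.62, SOT16 by 0.61, UGT74B1 by 0.58, SUR1 by 0.44 and PEN2 by 0.38.

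Beyond the core, IGMT1 averaged 128 ± 28.1 FPKM in number 1 and 67.5 ± 25.0 FPKM in numbers 2 and 3, a log2 difference of 0.98 (SE 0.10). PEN3, the exporter, was higher in number 1 by 0.33, FMOGS-OX1 by 0.44, GTR1 by 0.18 and MYB51 itself by 0.19. Of the aliphatic branch 5 of 12 genes were called higher (SOT17, CYP79F1, BCAT4, UGT74C1 and CYP83A1, by 0.50, 0.44, 0.39, 0.31 and 0.25) and IIL1 lower (by a difference of -0.10). SOT17 is a sulfotransferase and UGT74C1 a glucosyltransferase of that branch. The aliphatic regulators went apart: MYB29 was called higher, at 0.48, and MYB28 lower, at -0.46, with 4.15 ± 0.955 FPKM in number 1 and 6.09 ± 1.30 FPKM in numbers 2 and 3. TGG2 and ESM1 were also called lower in number 1, at -0.34 and -0.31.

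**Figure D5:**
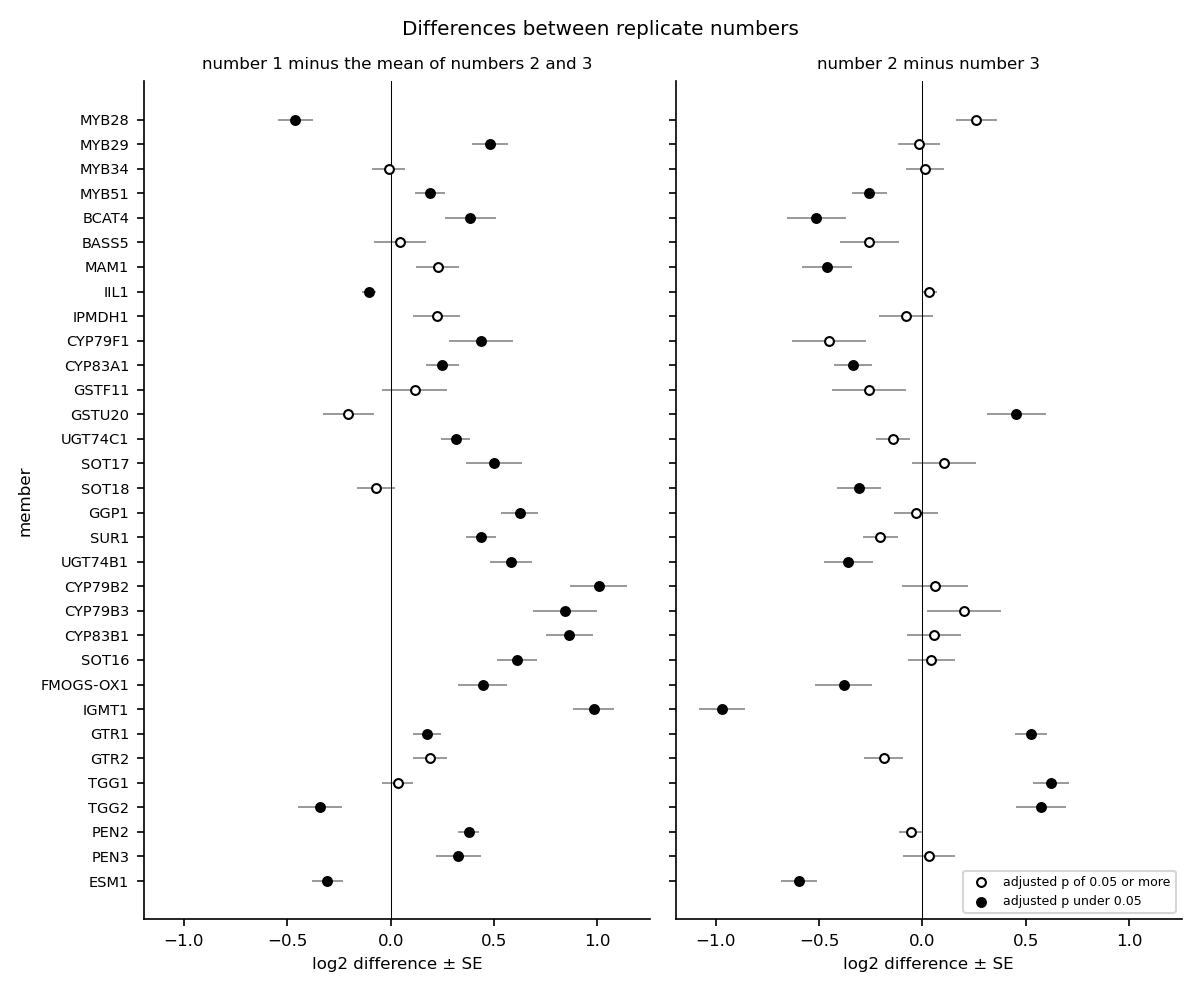
Log2 differences between pool numbers for the 32 tested members (down the page, by role), with bars for the standard error, for number 1 against numbers 2 and 3 and for number 2 against number 3. Filled points have a limma adjusted p under 0.05, 23 in the first panel and 13 in the second, and CYP79B2 at 1.01 and IGMT1 at 0.98 lie farthest right in the first.

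Numbers 2 and 3 also differed. Of 32 members 13 were called, 4 higher in number 2 and 9 lower, where 26.4% of all genes were called, 12.8% higher and 13.6% lower. The myrosinase genes TGG1 and TGG2 were higher in number 2, by 0.62 and 0.57 log2 units, as were GTR1, by 0.52, and GSTU20, by 0.45. TGG1 ran between 1389 and 1930 FPKM in number 2 and between 813 and 1258 FPKM in number 3, without overlap. IGMT1 was lower in number 2 by -0.97, with 30.5 to 62.8 FPKM in number 2 and 74.3 to 116 FPKM in number 3, also without overlap. ESM1 (-0.60), BCAT4 (-0.51), MAM1 (-0.46), FMOGS-OX1 (-0.38), UGT74B1 (-0.36), CYP83A1 (-0.34), SOT18 (-0.30), which is the third sulfotransferase, and MYB51 (-0.26) were lower in number 2. Without the library p2k1p2k2 eATP 2 the count was 8 in place of 13.

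Genes of neighbouring pathways also differed between the numbers, as most genes did. Of all genes 53.2% were called for number 1, 18.5% higher and 34.7% lower. All 7 tryptophan and camalexin genes were called higher in number 1, among them CYP71A13, at 1.74, and PAD3, at 1.58 log2 units. All 5 salicylate output genes were called higher too. PR1, the standard marker of that response, ran between 5.31 and 194 FPKM in number 1, between 0 and 54.3 FPKM in number 2 and between 0 and 7.62 FPKM in number 3. Of the further glucosinolate genes 13 of 25 were called higher in number 1 and 4 lower, with GSL-OH, a side-chain hydroxylase, at 1.41 and IGMT2 at 1.10. The sulfur genes APR1, a sulfate reductase gene, and APK2, which makes the activated sulfate, were higher by 1.08 and 0.87, with 7 of 13 called higher and 1 lower. Of 9 clock genes 4 were called higher, with CCA1 at 0.52 and LHY at 0.51, and 2 lower, GI at -0.22 and PRR7 at -0.16.

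Markers of cell types were not level either. All 5 guard cell markers were lower in number 1, with 3 called, where 34.7% of all genes were called lower. Their summed FPKM ran between 17.2 and 23.1 in number 1, 24.2 and 35.0 in number 2 and 21.2 and 26.4 in number 3. KAT1, a guard cell potassium channel, differed by -0.67. Of 5 epidermal markers PDF1 (-1.79), ATML1 (-0.33) and FDH (-0.16) were called lower in number 1, whereas LTP1 (-0.11) and CER6 (0.09) did not pass. Their sum ran between 666 and 992 FPKM in number 1, 658 and 897 in number 2 and 773 and 1303 in number 3. The summed mesophyll markers ran between 20938 and 25293 FPKM in number 1, 26019 and 30660 in number 2 and 22819 and 26820 in number 3. Of the 5 vein markers 2 were called lower in number 1, which is near the 34.7% of all genes. FPKM of the 5 summed between 158 and 194 in number 1, 178 and 206 in number 2 and 156 and 212 in number 3. The part of these differences in the members' values was not tested.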

How the data were processed

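The authors deposited FPKM per gene for each library, not counts, so read depth is not known and precision rests on the number of libraries. Per the submitters' processing notes, reads were handled with HISAT2 2.2.1, Cufflinks 2.2.1 and Cuffdiff 2.2.1 on TAIR10; SAMtools 1.19, Trim Galore 0.6.7 and FastQC 0.11.9 are also listed. Whether strand was used in counting is not given in the sources used here.

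From these values, log2(FPKM + 1) was fitted over all 27 libraries by group with limma 3.58.1 (trend, R 4.3.3) in 22 comparisons, over 16577 genes averaging 1 FPKM or more. Fold changes on this scale understate those of low genes. Pool numbers were compared in a fit with group as a term. Benjamini-Hochberg adjustment ran over all genes tested, and called means under 0.05. The fit was tested on simulated data. Of the table's genes 32539 matched the RefSeq gene table (assembly TAIR10.1), used for names and neighbours only.

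The members and lists were chosen with earlier results of these data known. Members called in any comparison, the member with the smallest p where none was called, and the highest and lowest in each role are named; other lists give up to 4 called genes each.

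Whether a number pairs pools was checked from the correlation of deviations from the group means, over pools of the same number and treatment (within a genotype, of the same number). All 9 such pairs were over 0.1 for p2k1p2k2 and Col-0 (0.217 to 0.447) and for both mutant lines (0.147 to 0.617), and 7 of 9 for glr3.3glr3.6 and Col-0, where the lowest was 0.0581. Comparing only pools of the same treatment was chosen after blocked results had been seen. Counting every same-numbered pair, not all would pass. AOP2 was not analysed here.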

Additional observations from a re-analysis of the deposited data

How the results depend on the processing

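No member reversed a call under any alternative. In the 17 comparisons that involve a treatment or mock libraries alone, the number of members called was 0 under every alternative and without any single library, except that 1 (GGP1, higher, limma adjusted p of 0.0236), of 8 genes in all, was called for eATP against mock in glr3.3glr3.6 with a replicate block within genotype. For glr3.3glr3.6 against Col-0 (1 called), the number was 0 after median-of-ratios scaling, with no filter on low values, with only the libraries compared, and with any 2 of the 3 pool numbers fitted alone; it was 5 with the block within genotype (MYB51, CYP83B1 and GGP1 higher, BCAT4 and GTR1 lower) and 3 with the block across genotypes (MYB51, CYP83B1 and GTR1), 0 with that block on numbers 1 and 3, and between 0 and 1 without single libraries. For p2k1p2k2 against Col-0 (0 called), it was 8 with the block within genotype and 4 across genotypes. With the latter block it was 1 on numbers 2 and 3, 0 on numbers 1 and 3 and 3 on numbers 1 and 2. Over all genes 1156 were called within genotype, 1098 across genotypes, 88 on numbers 2 and 3 and 445 on numbers 1 and 2. For p2k1p2k2 against glr3.3glr3.6 (1 called), the number of members was 12 with the block within genotype, 9 across genotypes and 3 with library weights. It was 0 on numbers 2 and 3 or 1 and 2 alone, and 8 on numbers 1 and 2 with the block. Over all genes 557 were called within genotype, 445 across genotypes, 247 with library weights and 215 on numbers 1 and 2 with the block. Without single libraries the number of members was between 0 and 3. It was 2 without glr3.3glr3.6 mock 3, glr3.3glr3.6 L-Glu 3 or p2k1p2k2 mock 2, and 3 without p2k1p2k2 L-Glu 2. For number 2 against number 3 (13 called), it was 5 with no group term and between 8 and 13 without single libraries. For number 1 (23 called) it lay between 21 and 25 without single libraries. The block changed no other count of members called. Over all genes it called 381 (across genotypes) or 394 (within genotype) for glr3.3glr3.6 against Col-0, where 25 were called without it. The block within genotype takes the variation between the numbers of each genotype out of the error. Its counts for comparisons between genotypes can therefore come out too high. Both blocks count the 3 treatments of a genotype and number as separate replicates. Fits on part of the pool numbers were chosen after seeing the data. Fits without a library assume that the remaining pools of its group vary as the others do. The cause of these shifts was not tested.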
